A study of Mus musculus with 54 samples.

Results

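The 9 genes described here mark B cells: Cd79a, Cd79b, Cd22, Ms4a1, Blk, Pax5, Fcer2a, Cxcr5 and Fcmr. They were taken by symbol, as 9 of the 13611 genes with deposited values. RNA was sequenced from 40 libraries of 4 organs of C57B6 mice (spleen, thymus, small intestine and large intestine) and from 14 libraries of NIH3T3, an established mouse embryonic fibroblast line. Irradiated libraries had received 10 Gy of gamma radiation and were collected at each hour from 1 to 8 h and at 24 h, and NIH3T3 also at each hour from 9 to 12 h. The unirradiated group is the 0 h library of each tissue or line. Every time point of a tissue was 1 library, and the labels do not say whether different hours came from different animals, nor give sex or age. With a single 0 h library per tissue, effects of time and handling cannot be told apart from radiation. In whole-organ RNA, fewer B cells and less B cell RNA per cell cannot be told apart either.

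A B cell senses antigen through a membrane antibody that signals through the paired chains CD79a and CD79b. Blk, a Src-family kinase, acts just below that receptor, and Cd22, a sialic acid-binding lectin, dampens it. Pax5 is the transcription factor that holds cells in the B lineage and is shut off when they become plasma cells. The spleen stores mature B cells in follicles, where the chemokine receptor Cxcr5 brings them. Resting lymphocytes are among the cells of the body most easily killed by ionizing radiation, and B cells are known to be more sensitive than plasma cells.

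Positions were taken from the RefSeq annotation of GRCm38.p6, which mm10 names. Cd79a lies on the plus strand at chr7:24897497-24901858 and Cd22 on the minus strand of the same chromosome at chr7:30865404-30880342. Cd79b, Ms4a1, Blk and Pax5 lie on minus strands at chr11:106311341-106314562, chr19:11249679-11266149, chr14:63372837-63417187 and chr4:44524748-44710694. Fcer2a and Cxcr5 also lie on minus strands, at chr8:3680280-3694174 and chr9:44511787-44526444, and Fcmr on the plus strand at chr1:130865777-130880790. The span of Fcer2a overlaps the protein-coding gene Trappc5 and that of Cxcr5 overlaps Bcl9l, and Ms4a1, Blk and Pax5 overlap noncoding genes. The libraries did not keep strand, so reads from overlapping exons cannot be assigned to 1 strand.

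Upstream sequences are shown for genes of the 2 courses described below, which were set by levels against 0 h in the libraries at 1 to 8 h. RefSeq's GRCm38.p6 promoter table held 5 of the 9 genes (Cd79a, Cd22, Pax5, Fcer2a and Fcmr, in 7 windows). Each window is the 250 bases before a transcription start, 5′ to 3′ on the gene's strand. Capitals mark matches on either strand to the E-box letters CAGNTG, the early B cell factor letters CCCNNGGG or the octamer ATTTGCAT, and no match overlaps another. The windows are chr7:24897247-24897496 (plus) for Cd79a, chr1:130865527-130865776 (plus) for Fcmr, chr4:44710695-44710944 (minus) for Pax5 and chr8:3694175-3694424 (minus) for the start of the Fcer2a gene.
Cd79a: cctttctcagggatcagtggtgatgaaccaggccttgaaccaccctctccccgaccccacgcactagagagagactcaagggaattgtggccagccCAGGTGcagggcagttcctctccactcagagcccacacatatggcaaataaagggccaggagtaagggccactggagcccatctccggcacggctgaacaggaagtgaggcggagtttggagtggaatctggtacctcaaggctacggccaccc
Fcmr: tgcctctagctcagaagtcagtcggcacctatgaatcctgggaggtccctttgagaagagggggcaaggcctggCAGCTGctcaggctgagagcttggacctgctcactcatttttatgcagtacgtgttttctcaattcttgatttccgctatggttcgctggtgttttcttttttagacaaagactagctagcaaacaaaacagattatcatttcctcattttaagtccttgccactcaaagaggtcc
Pax5: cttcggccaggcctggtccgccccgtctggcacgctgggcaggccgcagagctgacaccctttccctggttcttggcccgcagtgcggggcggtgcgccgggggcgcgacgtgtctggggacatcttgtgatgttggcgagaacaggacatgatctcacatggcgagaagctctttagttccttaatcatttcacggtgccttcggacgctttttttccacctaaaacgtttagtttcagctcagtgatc
Fcer2a: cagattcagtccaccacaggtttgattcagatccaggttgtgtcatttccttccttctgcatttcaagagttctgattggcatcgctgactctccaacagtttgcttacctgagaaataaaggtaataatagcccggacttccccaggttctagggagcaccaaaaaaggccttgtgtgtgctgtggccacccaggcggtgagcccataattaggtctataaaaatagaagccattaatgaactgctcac
The windows printed for Cd79a and Fcmr each held an E-box, and those printed for Pax5 and Fcer2a held none of the 3 motifs. Another Fcer2a window, at chr8:3690862-3691111 (minus), held 4 E-boxes, the most of the 7 windows, so that the motif did not divide the genes by course. An E-box occurred in 4 of the 7 windows, among them that of Cd22, and in 44.8% of all 32851 promoter windows of this length. The early B cell factor letters occurred in 1 of the 7, that of Cd22, against 11.8% of all, and the octamer in 0, against 1.60% of all. These matches describe letters and were not tested for binding.

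The genes were abundant in spleen, low in thymus and near 0 elsewhere, as the plot of all 54 libraries shows. FPKM scales a gene's fragments to its transcript length and to the mapped fragments of the library, which allows levels of different genes to be compared. In the 0 h spleen, Cd79b was highest at 871 FPKM, followed by Cd79a at 484, Ms4a1 at 405 and Fcmr at 269 FPKM. Fcer2a stood at 149, Cd22 at 112, Blk at 104, Cxcr5 at 98.0 and Pax5 at 61.0 FPKM. The 0 h spleen exceeded the 0 h thymus by 24.2-fold for Cd22 to 55.5-fold for Fcmr. In the intestines and NIH3T3, 0 of the 9 genes reached a mean of 1 FPKM, the minimum set for testing.

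**Figure D1:**
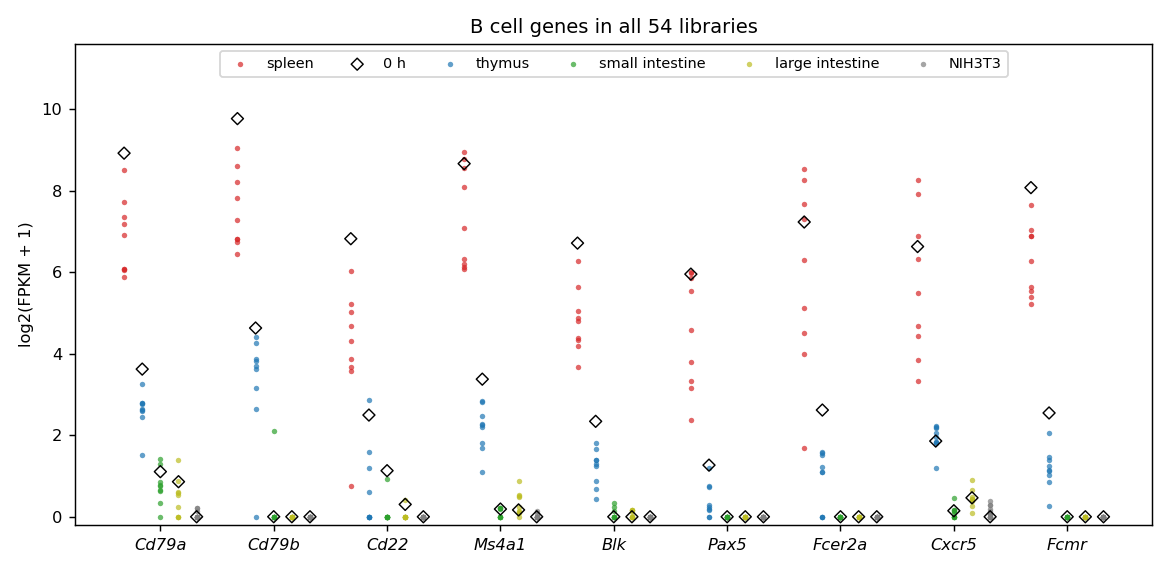
Levels of the 9 genes in all 54 libraries, as log2(FPKM + 1) on the vertical axis, with 1 point per irradiated library, coloured by tissue or line, and an open diamond for each 0 h library. Spleen lies above the other systems for every gene except in single libraries of Cd22 (0.692 FPKM at 8 h) and Fcer2a (2.22 FPKM at 24 h), and the intestines and NIH3T3 lie near 0.

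In spleen, the summed level of the 9 genes stood at 87.9% of the 0 h library at 1 h, 58.7% at 3 h, 26.4% at 5 h and 14.9% at 6 h, and at 12.5% at 24 h. The 9 genes took 2 courses. Cd79a, Cd79b, Cd22, Blk and Fcmr were below 0 h in all 8 libraries at 1 to 8 h. Ms4a1, Pax5, Fcer2a and Cxcr5 were at or above their 0 h level in 2 to 4 of the libraries at 1 to 4 h and below it in all later ones. By 8 h the courses had met, with every gene between 10.1% and 18.6% of 0 h apart from Cd22.

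**Figure D2:**
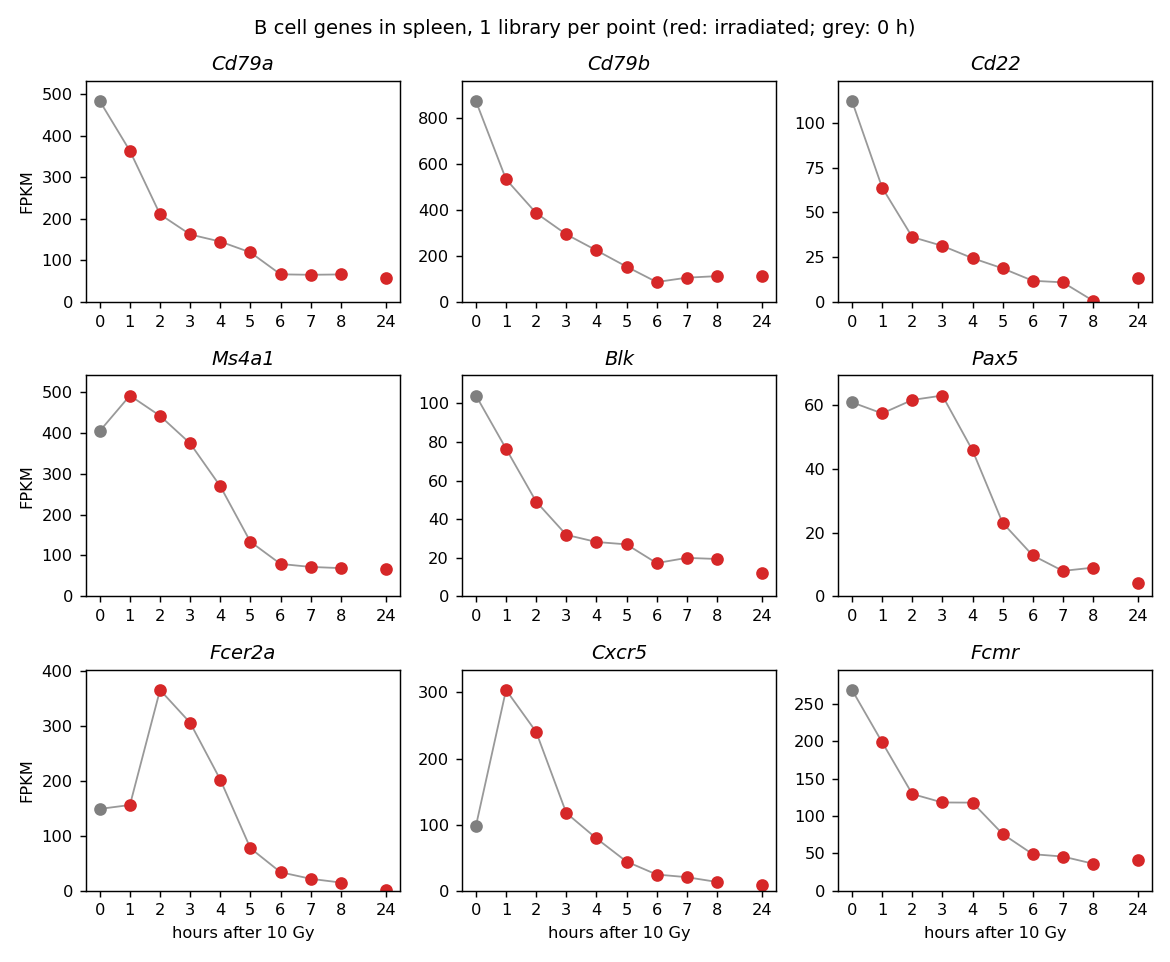
FPKM of the 9 genes in the 10 spleen libraries by hours after 10 Gy, 1 library per point, with the 0 h library in grey, irradiated libraries in red and a separate linear scale from 0 for each gene. Cd79a, Cd79b, Cd22, Blk and Fcmr are highest at 0 h, Ms4a1 and Cxcr5 at 1 h, Fcer2a at 2 h and Pax5 at 3 h.

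The signalling chains of the antigen receptor had the highest levels of the 9 genes at 0 h. Over 0 to 8 h and 24 h, in that order, Cd79a measured 484, 364, 211, 163, 145, 119, 66.5, 65.4, 66.2 and 58.3 FPKM. Cd79b measured 871, 532, 386, 293, 224, 153, 86.3, 105, 112 and 111 FPKM in the same libraries. Both were under 50% of 0 h from 2 h and under 25% from 5 h, and from 6 h on they lay between 9.91% and 13.7% of 0 h. Averaged over the 8 libraries at 1 to 8 h, Cd79a was 150.0 ± 101 FPKM (SD, n = 8), against 484 FPKM at 0 h.

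The kinase and the inhibitory co-receptor followed the same course. Blk measured 104, 76.5, 49.1, 31.9, 28.2, 26.9, 17.2, 19.9, 19.4 and 11.8 FPKM over 0 to 8 h and 24 h. Cd22 measured 112, 63.8, 36.2, 31.3, 24.5, 18.8, 11.8, 10.9, 0.692 and 13.6 FPKM. The Cd22 value at 8 h stood far below its neighbours at 7 h and 24 h, while the other 8 genes were at 10.1% to 18.6% of 0 h in that library. Fcmr, the Fc receptor for IgM on B cells, measured 269, 199, 129.5, 118, 118, 76.1, 49.0, 45.8, 36.3 and 40.7 FPKM.

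Ms4a1, the tetraspan membrane protein CD20, and the lineage factor Pax5 stayed near their 0 h level for 3 h. Ms4a1 measured 405, 491, 442, 374, 269, 134, 79.3, 72.0, 69.1 and 67.0 FPKM over 0 to 8 h and 24 h, so that its highest library was at 1 h. Pax5 measured 61.0, 57.5, 61.7, 63.1, 45.9, 23.1, 12.9, 7.997, 9.02 and 4.22 FPKM. Pax5 thus stood at 104% of 0 h at 3 h, while Cd79a stood at 33.6% in the same library. Both genes first fell below 50% of 0 h at 5 h.

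Fcer2a, the low-affinity IgE receptor CD23 of follicular B cells, and Cxcr5, the receptor for the follicle chemokine Cxcl13, were above 0 h in the first libraries. Cxcr5 measured 98.0, 304, 240.3, 118, 79.2, 44.2, 24.6, 20.6, 13.4 and 9.02 FPKM over 0 to 8 h and 24 h, and its 1 h library was 3.10 times 0 h. Fcer2a measured 149, 156, 366, 306, 203, 77.7, 33.9, 21.9, 15.0 and 2.22 FPKM, and its 2 h library was 2.45 times 0 h. From its highest library to 8 h, Fcer2a went down 24.4-fold and Cxcr5 22.7-fold, against 7.30-fold for Cd79a, whose highest library was 0 h. Against 0 h, the 8 h levels of Fcer2a, Cxcr5 and Cd79a were alike, at 10.1%, 13.7% and 13.7%. At 24 h Fcer2a was at 1.49% of 0 h, lower than any other of the 9 genes, which stood between 6.92% and 16.6%.

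**Figure D3:**
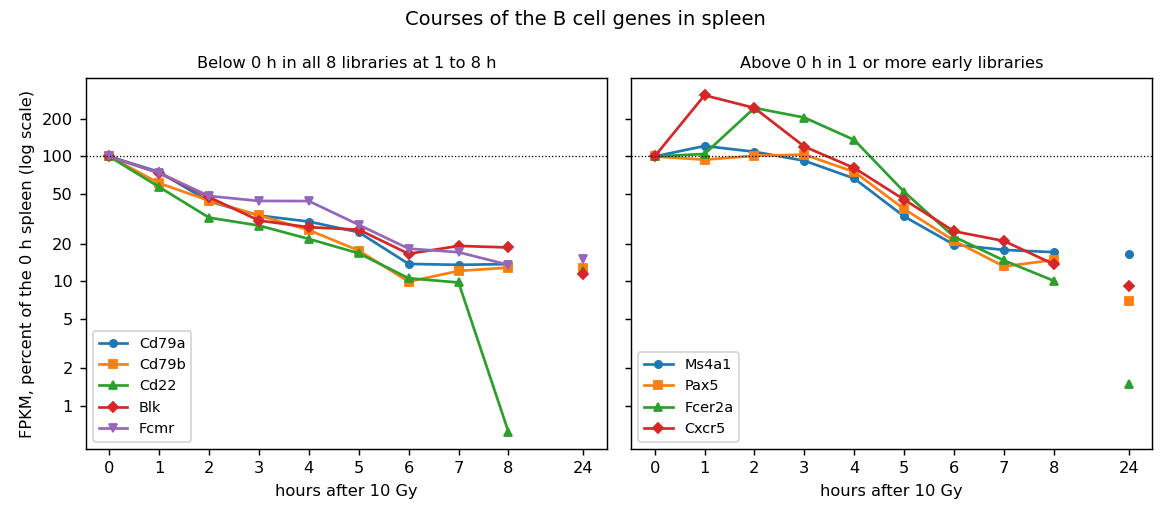
FPKM of each gene in spleen as a percent of its 0 h library, on a log scale, by hours after 10 Gy, with 1 library per point and the 24 h library unconnected. The left panel holds the 5 genes below 0 h in all 8 libraries at 1 to 8 h and the right panel the 4 that were at or above it in 2 to 4 of the libraries at 1 to 4 h, with Cxcr5 reaching 309.8% at 1 h and Fcer2a 245% at 2 h.

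Changes were tested with limma on log2(FPKM + 1), in 1 fit over the 40 tissue libraries with a mean for each tissue and time window (0, 1 to 2, 3 to 5, 6 to 8 and 24 h), and p-values were adjusted over all genes tested. Each log2 change is given with its SE. At 1 to 8 h against 0 h in spleen, 6 of the 9 genes fell, where 3.66% of the 11791 genes tested fell. Blk fell by 1.77 ± 0.21 (adjusted p = 6.65e-06), Fcmr by 1.68 ± 0.25 (adjusted p = 0.000102) and Cd79a by 1.93 ± 0.33 (adjusted p = 0.000532). Cd22 fell by 2.67 ± 0.63 (adjusted p = 0.00858), Pax5 by 1.17 ± 0.32 (adjusted p = 0.0215) and Ms4a1 by 1.15 ± 0.32 (adjusted p = 0.0245). Cd79b changed by -2.15 ± 0.75 (adjusted p = 0.0745), Fcer2a by -0.77 ± 0.51 (adjusted p = 0.388) and Cxcr5 by -0.65 ± 0.31 (adjusted p = 0.212), which did not pass. The error in this fit is shared over the 4 tissues. Cd79b was listed near 0 in thymus at 8 h alone, and without that library it passed (adjusted p = 0.00398). In small intestine it was 3.28 FPKM at 7 h alone, and without that library it passed too (adjusted p = 0.0458). Cd79b also passed without the 7 h thymus library (adjusted p = 0.0482) and with quantile normalization (adjusted p = 0.0432). A fit on spleen alone called 4 genes, namely Cd79a, Cd79b, Blk and Fcmr, with adjusted p from 0.00663 to 0.0197, and lost Cd22, Ms4a1 and Pax5 (adjusted p = 0.126, 0.141 and 0.148). Ms4a1 also lost its call without the spleen library of 6, 7 or 8 h, and Pax5 without that of 7 or 8 h. With 0.1 FPKM added in place of 1, the changes were of like size, but Fcmr alone was called (adjusted p = 0.00522), and Blk, Cd79a, Cd22, Pax5 and Ms4a1 were not (adjusted p = 0.0558, 0.143, 0.195, 0.279 and 0.330).

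The hourly loss among irradiated libraries does not rest on the 0 h library. A line through the 8 libraries at 1 to 8 h sloped down for 9 of the 9 genes, where 14.8% of all genes tested fell with time. The 4 genes that stayed up early were grouped by libraries that also set the start of the line. Their slopes are therefore no separate evidence for the grouping. Cxcr5 sloped at -0.66 ± 0.03 (adjusted p = 2.21e-15), Fcer2a at -0.64 ± 0.08, Ms4a1 at -0.48 ± 0.04 and Pax5 at -0.47 ± 0.05 log2 units per hour. Cd79b sloped at -0.37 ± 0.10 (adjusted p = 0.00564), Cd79a at -0.35 ± 0.04, Fcmr at -0.34 ± 0.03 and Blk at -0.27 ± 0.03. Cd22 sloped at -0.59 ± 0.07, and at -0.40 without the 8 h library (adjusted p = 6.40e-05). A fit on spleen alone also called all 9 genes, with adjusted p up to 0.00308. With 0.1 FPKM added in place of 1, Cd79b lost its call (adjusted p = 0.175). The overlapping genes were also called lower, with smaller slopes than the -0.66 and -0.64 of Cxcr5 and Fcer2a. Bcl9l sloped at -0.13 ± 0.03 (adjusted p = 0.00354) and Trappc5 at -0.08 ± 0.03 log2 units per hour (adjusted p = 0.0379). Bcl9l changed by 0.52 ± 0.23 at 1 to 2 h against 0 h (adjusted p = 0.236). It fell by 0.91 ± 0.17 at 6 to 8 h against 1 to 2 h (adjusted p = 0.000473). The part of overlapping reads in the slopes of Cxcr5 and Fcer2a was not tested.

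By windows, Cxcr5 was the 1 of the 9 genes called at 1 to 2 h against 0 h. It rose by 1.45 ± 0.36 (adjusted p = 0.0244), where 2.86% of all genes rose and 1.02% fell, and the call was lost without either of the 1 h and 2 h libraries and in the fit on spleen alone (adjusted p = 0.228). Fcer2a changed by 0.68 ± 0.58 in that window (adjusted p = 0.612). At 3 to 5 h, Cd79a, Blk and Fcmr fell, which is 3 of 9 where 3.04% of all genes fell. At 6 to 8 h all 9 fell, where 6.86% of all genes fell, with log2 changes from -2.31 ± 0.34 for Cxcr5 to -4.15 ± 0.69 for Cd22, which was -3.19 without the 8 h library. Set against 1 to 2 h in place of 0 h, 6 to 8 h was again lower for 9 of 9, where 14.9% of all genes fell, with changes from -1.65 ± 0.18 for Blk to -3.76 ± 0.27 for Cxcr5. In that comparison Cd79b lost its call without the 1 h library (adjusted p = 0.0961). These windows were chosen after the values were seen.

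The spleen library at 6 h also held transcripts of acinar pancreas, the gland beside the spleen. A list of 7 acinar genes summed to 51222 FPKM there, or 9.04% of all FPKM, against 8.44 to 151 FPKM in the other 9 spleen libraries. Without the 6 h library, all 9 genes were still called at 6 to 8 h and at 24 h against 0 h and in the slope, and at 1 to 8 h against 0 h 5 of the 9.

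At 24 h against 0 h, all 9 genes fell in spleen, where 7.51% of all genes fell. The log2 changes were -5.55 ± 0.67 for Fcer2a (adjusted p = 6.86e-06) and -3.57 ± 0.42 for Pax5 (adjusted p = 5.52e-06). They were -3.31 ± 0.42 for Cxcr5, -3.03 ± 0.28 for Blk, -3.03 ± 0.44 for Cd79a, -2.96 ± 1.00 for Cd79b and -2.96 ± 0.84 for Cd22. The smallest were -2.69 ± 0.33 for Fcmr and -2.58 ± 0.43 for Ms4a1. Both time points are single libraries, so that the errors assume that they vary as libraries within windows do. A fit on spleen alone called 8 of the 9, without Cd22 (adjusted p = 0.126). With 0.1 FPKM added in place of 1, Cd79b and Cd22 lost their calls (adjusted p = 0.331 and 0.223).

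Other genes of B cells fell in part in spleen. The log2 change at 1 to 8 h against 0 h had a median of -1.68 over the 9 genes and of 0.02 over all genes tested. Of 14 B cell receptor signalling genes, 5 fell and 0 rose, with a median of -0.69. The lowest were Cd72, an inhibitory lectin, at -1.32 ± 0.31, the complement receptor Cr2 at -1.20 ± 0.25 and the kinase Btk at -1.09 ± 0.25. Of 11 B cell transcription factors, 3 fell and 0 rose, with a median of -0.45, and these were Ikzf3 at -1.30 ± 0.28, Ebf1 at -1.13 ± 0.30 and Bach2 at -0.91 ± 0.28. Of 13 further B cell genes, 8 fell and 1 rose, with a median of -1.14. The lowest of these were the antigen-loading gene H2-Ob at -2.13 ± 0.27, Fcrla at -1.90 ± 0.30 and Ralgps2 at -1.83 ± 0.22. Cd83, an activation marker of B and dendritic cells, rose by 1.34 ± 0.34 (adjusted p = 0.0136). Its levels were 840.4 FPKM at 1 h and 449 at 2 h, against 85.1 FPKM at 0 h, so that it was high in the same early libraries as Cxcr5. By 24 h, 5 of 14, 7 of 11 and 10 of 13 genes of these lists had fallen and 1, 0 and 0 had risen. These lists are not confined to B cells. The receptor signalling list summed to 210 to 277 FPKM in NIH3T3, against 936 to 1495 FPKM in spleen. In NIH3T3 the transcription factors summed to 34.0 to 50.7 FPKM and the further B cell genes to 23.4 to 32.7 FPKM. The part of other cells in the medians of these lists was not tested.

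Plasma cells end the B lineage, and their genes form a list of their own. Of 7 tested, 0 fell and 0 rose at 1 to 8 h against 0 h in limma, with a median of 0.29, and along the slope over 1 to 8 h 4 of the 7 rose, where 17% of all genes did. The difference between this list and the 9 genes was not tested. The list is not confined to plasma cells. It summed to 115 to 156 FPKM in NIH3T3, where Jchain was at 0 and Mzb1 at most at 0.166 FPKM. Jchain, which joins secreted IgM and IgA, changed by -0.30 ± 0.40 at 1 to 8 h against 0 h, Mzb1 by -0.25 ± 0.48, Derl3 by -0.20 ± 0.40 and Fkbp11, the highest, by 0.48 ± 0.58. Jchain measured 753 FPKM at 0 h, 394 at 4 h, 1160.3 at 8 h and 1120.1 at 24 h. At 24 h 0 of the 7 plasma cell genes were called in either direction in limma, and 1 of the 7 had an unadjusted p below 0.05, against 0 of the 7 at 1 to 8 h.

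Markers of other spleen cells moved at the same hours. Of 17 T cell genes, 5 fell and 0 rose at 1 to 8 h against 0 h with a median of -0.57, and 15 of 17 fell by 24 h. The lowest were Thy1 at -1.85 ± 0.37, Cd2 at -1.67 ± 0.25 and Cd8b1 at -1.43 ± 0.32. Their summed level was 239 FPKM at 24 h, against 782 FPKM at 0 h, or 30.6%, where the 9 B cell genes stood at 12.5%. Of 12 macrophage, monocyte and neutrophil genes, 0 fell and 1 rose at 1 to 8 h, with a median of 0.57, and 7 rose by 24 h. Of the 11791 genes tested in spleen, 2447 were called at 24 h, 886 of them lower. Cd14, the endotoxin co-receptor, rose by 2.03 ± 0.56, and the lowest were Mrc1 at -0.37 ± 0.30, Csf1r at -0.10 ± 0.27 and C1qa at 0.18 ± 0.19. The summed level of the 12 macrophage, monocyte and neutrophil genes was 4550.4 FPKM at 0 h, 4762 to 6501 FPKM at 1 to 5 h and 14876 to 19515 FPKM at 6 to 8 h. At 6 to 8 h against 0 h, 7 of the 12 rose, with a median of 0.89. A sum weighs the most abundant genes most, so its rise is not that of the typical gene of the list. Of 8 erythroid genes 3 fell at 1 to 8 h, Car1 at -5.56 ± 0.88, Klf1 at -1.95 ± 0.46 and Gata1 at -1.39 ± 0.19, while Epb42 changed by -0.23 ± 0.33. By 24 h all 8 erythroid genes had fallen, with a median of -4.69, against -3.03 for the 9 B cell genes, and their summed level was 22.3 FPKM, or 2.20% of 0 h. FPKM are shares of a library, so these shifts enter the values of the 9 genes too, and their part in the loss was not tested.

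Of 8 lymphoid follicle genes, 1 fell and 0 rose in spleen at 1 to 8 h against 0 h, with a median of 0.29. The follicle-forming cytokine Ltb fell by 1.32 ± 0.38 (adjusted p = 0.0303). Lta changed by -0.79 ± 0.30, Gpr183 by -0.02 ± 0.21 and Madcam1, the highest, by 0.90 ± 0.34. Cxcl13, the ligand of Cxcr5, was 601 FPKM at 24 h, against 207 FPKM at 0 h, the lowest of its 10 spleen libraries. Of the 4 intestinal epithelium genes tested in spleen 0 were called or had an unadjusted p below 0.05, with Lgals4 at -0.18 ± 0.25, Epcam at -0.09 ± 0.27, Krt18 at 0.38 ± 0.59 and Krt19 at 0.62 ± 0.42. Of the 7 acinar genes 0 were called or had an unadjusted p below 0.05, from Cela1 at 0.61 ± 1.57, Cel at 1.80 ± 1.77 and Pnliprp1 at 1.87 ± 1.85 to Ctrb1 at 2.78 ± 2.19.

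**Figure D4:**
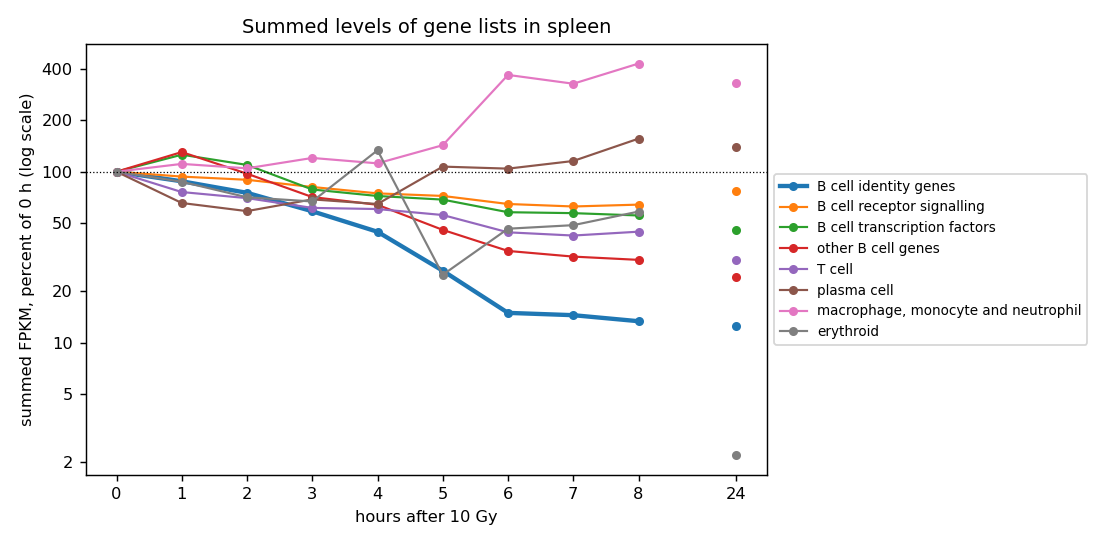
Summed FPKM of gene lists in spleen as a percent of the 0 h library, on a log scale, by hours after 10 Gy, with 1 library per point and the 24 h library unconnected. At 24 h the erythroid list is lowest at 2.20% and the 9 B cell genes next at 12.5%, while at 8 h the 9 genes are lowest at 13.4%. The macrophage, monocyte and neutrophil list stands at 327% or more from 6 h. Sums weigh the most abundant genes of a list most.

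Correlations describe how alike the courses were. Pearson correlations of log2(FPKM + 1) were taken across the 10 spleen libraries, which share the tissue and the fall with time. Over the 36 pairs of genes they had a median of 0.88, from 0.63 for Cd22 with Fcer2a to 0.98 for Cd79a with Fcmr. They did not always follow the 2 courses. Ms4a1 was at 0.95 with Fcmr of the other course and at 0.89 with Fcer2a of its own. Pax5 did follow them, at 0.97 with Fcer2a of its own course and 0.92 with Fcmr of the other. Across the 40 tissue libraries, genes among the most like the mean of the 9 were Tnfrsf13c (r = 0.990), Cr2 (0.985), Rasgrp3 (0.982), Chst3 (0.978), Siglecg (0.976), Bank1 (0.975) and Fcrla (0.974), out of 11782 genes. These correlations mostly follow the difference between spleen and the other tissues.

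Thymus is mainly a T cell organ, and its B cell transcripts were scarce. Over 0 to 8 h and 24 h, Cd79a measured 11.3, 8.56, 5.02, 5.24, 5.96, 5.89, 5.13, 4.44, 5.79 and 1.86 FPKM. Ms4a1 measured 9.38, 6.13, 4.57, 3.84, 3.73, 6.01, 3.59, 2.51, 2.22 and 1.13 FPKM. Blk measured 4.07, 2.53, 1.61, 2.17, 1.45, 1.64, 0.847, 0.607, 1.36 and 0.346 FPKM, and all 3 genes were below 0 h in each irradiated library. Fcmr lay between 0.798 and 3.13 FPKM at 1 to 8 h, against 4.84 FPKM at 0 h, and Fcer2a between 0 and 2.03 FPKM, against 5.14 FPKM at 0 h. Cxcr5 lay between 2.52 and 3.69 FPKM at 1 to 8 h, against 2.62 FPKM at 0 h, and the groups overlapped. Cd79b was 23.8 FPKM at 0 h, 7.91 to 20.1 FPKM at 1 to 7 h, 0.000687 at 8 h and 5.24 FPKM at 24 h. Cd22 was listed at or under 0.00175 FPKM in 5 of the 8 libraries at 1 to 8 h and at 6.26 FPKM at 24 h, against 4.64 FPKM at 0 h. Pax5 averaged under 1 FPKM, at most 1.41 FPKM at 0 h, and was not tested.

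In thymus 5 of the 8 genes tested fell at 1 to 8 h against 0 h, where 3.93% of all genes fell. These were Fcmr by 1.26 ± 0.25 (adjusted p = 0.00144), Blk by 1.05 ± 0.21 (adjusted p = 0.00157), Ms4a1 by 1.08 ± 0.32, Cd22 by 2.07 ± 0.63 and Fcer2a by 1.60 ± 0.51, the last 3 with adjusted p from 0.0276 to 0.0393. The count was 2 without the 7 h thymus library and 3 without the 8 h one. Cd22 averaged 0.476 FPKM at 1 to 8 h and reached the minimum for testing through its 24 h library. Its high 0 h value raised the mean too, but the minimum was reached without it. Cd22 lost its call without the 6, 7 or 8 h thymus library (adjusted p = 0.0516, 0.0563 and 0.0536). Other lists moved in the same comparison, with 5 of 11 intestinal epithelium genes and 6 of 12 macrophage, monocyte and neutrophil genes higher and 5 of 17 T cell genes lower. Of the 12426 genes tested, 1518 were called in it, 488 of them lower. At 24 h 5 of 8 were lower (Cd79a, Ms4a1, Blk, Fcer2a and Fcmr), where 18.6% of all genes fell. Genes listed for intestinal epithelium were also higher in the 24 h thymus library. The brush border gene Vil1 was at 260.2 FPKM, against 0.629 FPKM at 0 h. Of the 11 genes of that list 10 rose, where 5595 of the 12426 genes tested were called, 2314 of them lower. The list already summed to 335 FPKM in the 0 h thymus, against 8.21 FPKM in the 0 h spleen. The tissue of origin of these transcripts was not tested. The summed epithelial list was above 0 h in every irradiated thymus library, at 121% of 0 h at 1 h, 255% at 3 h, 467% at 6 h, 829.5% at 8 h and 677% at 24 h. The summed level of 17 T cell genes was 39.4% of 0 h at 8 h and 12.8% at 24 h, and that of the macrophage, monocyte and neutrophil list 414% and 308%. Along the slope, 3 of 8 fell (Cd79b, Ms4a1 and Blk), where 16.3% of all genes fell, which is 1 without the 1 h or the 8 h library. Along the same slope 8 of 11 epithelial and 10 of 12 macrophage, monocyte and neutrophil genes rose and 12 of 17 T cell genes fell. Of the 12426 genes tested, 4691 were called along it, 2023 of them lower. The part of these list shifts in the values of the 9 genes was not tested.

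Whether spleen and thymus differed was tested directly, as the change in spleen minus the change in thymus, a comparison added after the values were seen. At 1 to 8 h against 0 h, 0 of the 8 genes differed in limma, where 0.28% of all genes were lower in spleen, and 2 of the 8 had an unadjusted p below 0.05. At 24 h, 1 differed, where 4.04% of all genes were lower, namely Cxcr5, lower in spleen by -2.65 ± 0.59 (adjusted p = 0.00572). Along the slope, 7 of 8 went down more steeply in spleen, where 8.83% of all genes did. Fcer2a and Cxcr5 had the widest gaps, at -0.65 ± 0.11 and -0.63 ± 0.04 log2 units per hour, and Blk the narrowest of the 7, at -0.15 ± 0.05. Blk became -0.093 without the 1 h spleen library (adjusted p = 0.206) and -0.0999 without the 8 h thymus library (adjusted p = 0.219), and it also lost its call without the 2 h or 6 h spleen or the 2 h thymus library and with quantile normalization (adjusted p = 0.104). Cd22 was -0.43 ± 0.10, and -0.24 without the 8 h spleen library (adjusted p = 0.0572). Cd79b differed by 0.03 ± 0.14 (adjusted p = 0.915), and by -0.25 without the 8 h thymus library (adjusted p = 0.122). The added 1 FPKM shrinks slopes at thymic levels, and with 0.1 FPKM in its place 3 of 8 were called (Fcer2a, Cxcr5 and Fcmr). As a percent of 0 h, the 8 h library was lower in spleen than in thymus for 6 of the 9 genes and higher for 3. The values were 17.1% in spleen and 23.6% in thymus for Ms4a1, 18.6% and 33.4% for Blk, 13.7% and 51.1% for Cd79a, and 13.7% and 97.5% for Cxcr5. They were 10.1% and 26.2% for Fcer2a and 13.5% and 16.5% for Fcmr. For Cd79b they were 12.8% and 0.0029%, for Pax5 14.8% and 0%, and for Cd22 0.617% and 0%, so that these 3 were lower in thymus, where they were listed at or near 0.

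**Figure D5:**
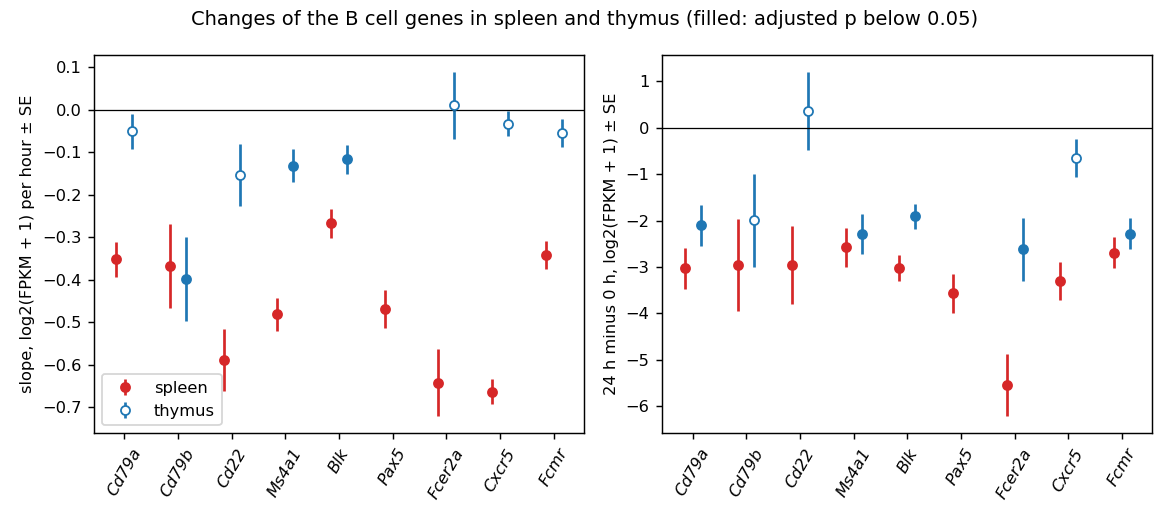
Slope per hour over 1 to 8 h (left) and change at 24 h against 0 h (right) of each gene, in log2(FPKM + 1) ± SE from limma, for spleen (red) and thymus (blue), with filled points for an adjusted p below 0.05. In spleen all 9 slopes and all 9 changes at 24 h are filled and negative, in thymus 3 slopes and 5 changes, and Pax5 was not tested in thymus.

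The intestines were chosen as tissues that also hold B cells, but these genes gave almost no signal there. In small intestine, 47 of the 90 values were exactly 0, and Pax5, Fcer2a and Fcmr were at 0 in all 10 libraries. Cd79a reached at most 1.68 FPKM there, with 1.15 FPKM at 0 h. Cd79b was 3.28 FPKM at 7 h and at most 0.000691 FPKM in the other 9 small intestinal libraries. In large intestine, 46 of the 90 values were 0, Pax5 and Fcmr were at 0 in all 10 libraries, and the highest value was 1.61 FPKM for Cd79a at 1 h. Ms4a1 reached 0.836 and Cxcr5 0.860 FPKM in large intestine. In NIH3T3, which derive from fibroblasts, 113 of the 126 values were 0 and the highest was 0.300 FPKM, for Cxcr5. Intestinal levels of most of the 9 genes thus lay close to this non-lymphoid background.

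The loss per hour in spleen could therefore not be set against a loss in intestine. In small and large intestine 0 of the 9 genes were tested, and 0.0176% and 0.27% of all genes fell at 1 to 8 h against 0 h. The difference between spleen and the intestines also had 0 testable genes, where 0.477% of the 10070 genes tested at 1 to 8 h against 0 h were lower in spleen. Levels near 0 leave little room to fall, so no difference between spleen and intestine is given. Cd79a in large intestine did go down, from 0.815 FPKM at 0 h and 1.61 at 1 h to 0.452 at 5 h and 0.173 at 6 h. It was at 0 FPKM at 7, 8 and 24 h. In small intestine Cd79a was 1.15 FPKM at 0 h, 1.68 at 6 h, 0 at 8 h and 0.537 at 24 h. With means under 1 FPKM, these courses were not tested at the set minimum. Plasma cell genes were present in the intestines. Jchain lay between 181 and 344 FPKM in small intestine and between 28.9 and 195 FPKM in large intestine, against 0 FPKM in all 14 NIH3T3 libraries. Mzb1, another plasma cell gene, lay between 3.91 and 12.1 FPKM in small intestine and between 0.483 and 5.90 FPKM in large intestine.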

How the data were processed

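Per the submitters' processing notes, the authors aligned reads to mm10 with TopHat2 2.1.0 and estimated transcripts with Cufflinks 2.1.1. The values they deposited are FPKM. Any further scaling of the libraries is not described in the labels. Fragment totals are unknown, so single values carry no counting interval. From low values, the deepest spleen library held roughly 2.22 times the fragments of the shallowest, and 3.36 times in thymus. A level of 0 may be a failed estimate.

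Tests used limma 3.58.1 in R 4.3.3 on log2(FPKM + 1), two-sided, with a variance trend and Benjamini-Hochberg adjustment over all genes with a mean of at least 1 FPKM in the tissue. Calls used an adjusted p below 0.05. Windows share 20 residual degrees of freedom, and slopes used the 32 libraries at 1 to 8 h. Neighbouring hours served as replicates, so p-values measure only the spread between these libraries. The test was also run on simulated data, which cannot show whether neighbouring hours vary as true replicates would.

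The 9 genes and all lists were chosen with earlier results of these data known. From each list the 3 lowest changes at 1 to 8 h in spleen are named, with the highest for lists outside the B lineage. Cd83 and Cxcl13, and Jchain and Mzb1 in the intestines, were singled out after their values were seen. Genes that these rules name but the text does not are not reported here. Of 114 list genes, 5 were not in the table. Alternatives covered the added value, the filter, scaling, windows, separate fits and left-out libraries.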

Additional observations from a re-analysis of the deposited data

Results flagged for a closer look

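Slopes per hour over 1 to 8 h differed between tissues in the test of spleen minus thymus for 7 genes: -0.65 for Fcer2a, -0.63 for Cxcr5, -0.43 for Cd22, -0.35 for Ms4a1, -0.30 for Cd79a, -0.29 for Fcmr and -0.15 for Blk, in log2(FPKM + 1), each steeper in spleen (n = 8 libraries per tissue). Cd22 lost its call without the 8 h spleen library (-0.24, adjusted p = 0.0572 in limma), and Blk without any 1 of 5 libraries, with -0.093 without the 1 h spleen library (adjusted p = 0.206) and -0.0999 without the 8 h thymus library (adjusted p = 0.219). The change at 24 h against 0 h differed for Cxcr5, by -2.65.

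In NIH3T3 at 9 to 12 h (n = 4), Cd79a was 0.161 FPKM in 1 library and 0 in the other 3, a gap that takes up the whole range. In this group 3 genes had a range above 0. The rule's rate of about 1 in 20 by chance is for normally spread values and does not apply here, because the exact 0s fixed the gap.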

How the results depend on the processing

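Over 111 pairs of gene and comparison, 4344 of 4465 alternative values kept direction and side of the threshold, 65 lost and 35 gained a call, and 21 reversed. In spleen, the 9 genes called at 24 h ranged from 7 to 9 and the 9 called along the slope from 8 to 9 over all alternatives. At 1 to 8 h against 0 h, 1 of 9 was called with 0.1 FPKM added, and 4 to 8 with 1 library left out. The added 0.1 also left 1 call at 3 to 5 h and 0 at 1 to 2 h, where the spleen fit left 0 and left-out libraries 0 to 2. Thymus at 1 to 8 h had 2 calls with 0.1 added, 1 of 3 testable at a minimum of 3 FPKM, 3 with other windows, and 2 to 6 with 1 library left out; at 24 h it had 2 at that minimum, and along the slope 1 to 4 with 1 left out. Spleen minus thymus had 0 at 24 h with 0.1 added or the minimum of 3 FPKM, 2 with no filter, quantile normalization or without the 2 h large intestinal and 6 h spleen libraries, and 1 to 2 with 1 left out. Its slopes had 3 with 0.1 added and 2 of 3 testable at the higher minimum. Spleen minus intestines had 2, 4 and 6 of 6 with no filter (1 to 8 h, 24 h and slope), a direction that intestinal levels near 0 had fixed, and the large intestinal slope had 1 with no filter.

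Reversed values had not been called, the largest being -1.12 for Blk and -0.59 for Cd22 in spleen minus thymus. With 0.1 added, spleen minus thymus became 1.36 for Cd22, 0.10 for Ms4a1 and 0.025 for Fcmr at 1 to 8 h, and 0.35 for Ms4a1, 0.10 for Blk and 1.31 for Fcmr at 24 h. For Ms4a1 at 1 to 8 h it became 0.0998 without the 2 h large intestinal and 6 h spleen libraries, and ranged from -0.27 to 0.13 with 1 library left out, and for Cd79b along the slope from -0.25 to 0.14. Quantile normalization gave -0.019 for Cxcr5 in thymus at 1 to 8 h and -0.025 for the Fcer2a slope, which ranged from -0.033 to 0.095 with 1 library left out. Left-out libraries gave -0.083 to 0.017 for Pax5 in spleen at 1 to 2 h and -0.25 to 0.74 for Fcer2a at 3 to 5 h. The cause was not tested.

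Median-of-ratios scaling moved the median of all genes at 24 h in spleen to -0.02, against 0.09 as deposited, and lower calls to 49.3% of calls, against 36.2%; in spleen minus intestines at 24 h these were 48.3% and 30.9%, and for the small intestinal slope 32.4% and 42.4%. In thymus at 24 h the median was 0.03 with that scaling and -0.12 with quantile normalization, against 0.15. Replicate numbers follow accession order and pair no libraries, but the tissues share their hours. A replicate block on the hour, added after the data were seen, left 0, 1 and 7 of 8 called in spleen minus thymus (1 to 8 h, 24 h and slope), as without it. Deviations of same-hour spleen and thymus libraries from their window means correlated between -0.067 and 0.323, over 0.1 in 2 of 8 pairs, and 1 of 8 spleen libraries correlated best with its own hour. Depth limits levels under about 1 FPKM.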
